A study of Mus musculus with 3 samples.

Results

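The genes described here encode the nuclear subunits of the 5 oxidative phosphorylation complexes of the mitochondrion. They were chosen by symbol: a gene was taken if a probe set named it alone and its symbol began with Nduf followed by a, b, c, s or v and a number, with Uqcr, with Cox and a number from 4 to 8, or with Atp5, or was Sdha, Sdhb, Sdhc or Sdhd. Assembly factors named Ndufaf were left out, and each gene was represented by its probe set with the highest mean signal. The rule found 81 genes among the 18194 with such a probe set, 35 of complex I, 4 of complex II, 8 of complex III, 17 of complex IV and 17 of complex V. Ndufa4 and Ndufa4l2 are counted with complex I by symbol, although the NDUFA4 protein is now placed in complex IV. Ndufs6, Ndufa11 and Cox7b were not analysed here.

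Gene expression was measured on 3 Affymetrix arrays, 1 for each kind of cell, from WR19L, a T-lymphoma cell line of the BALB/c mouse strain. The first array held untreated parental cells. The second held DKO cells, a derivative of WR19L deficient in flippases, with a stable transgene for wild-type human ATP11A, and the third held DKO cells with ATP11A carrying the Q84E mutation. ATP11A is a flippase of the P4-ATPase family and moves phospholipids of the plasma membrane inward, to its cytoplasmic face. The wild-type and Q84E arrays therefore share the DKO background and differ in the transgene, while a ratio over the parental array spans the knockout, the transgene and the derivation of the line, which cannot be told apart. DKO cells without a transgene were not analysed here, and the labels do not say whether a line is 1 clone. With 1 array for each kind of cell there is no replicate, no SD and no test, and every ratio below compares 2 arrays. The 3 ratios, written Q84E/wild-type, wild-type/parental and Q84E/parental, share arrays, so they are given side by side and are not independent.

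Oxidative phosphorylation passes electrons from NADH, through complex I, and from succinate, through complex II, to ubiquinone, then through complex III and cytochrome c to complex IV, which reduces oxygen. Complexes I, III and IV pump protons across the inner membrane, and complex V, the ATP synthase, uses the proton gradient to make ATP. Most subunits are encoded in the nucleus and imported, a small core of all complexes except complex II is encoded in mitochondrial DNA, and several subunits of complex IV exist as a common isoform and an isoform restricted to tissues such as heart, skeletal muscle, lung or testis. Proliferating T cells use both glycolysis and oxidative phosphorylation.

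Each value is a MAS5 signal on a linear scale. A signal under the 50th percentile of its own array, 50.3 on the parental, 50.5 on the wild-type and 55.5 on the Q84E array, was treated as lying under a floor, and a gene was compared if it reached the floor on at least 1 array, as 11617 genes did. All arrays had a trimmed mean of 500.0. Of 8 T cell markers 7 had a named probe set: Cd3d, Cd3g, Cd247, Thy1 and Cd2 were above the floor on all arrays, and Cd3e and Cd5 were under it on all arrays. The summed signal of the 7 was 18856 on the parental, 12668 on the wild-type and 17231 on the Q84E array. Summed signals of B cell, myeloid, erythroid and fibroblast markers lay between 8.15 and 262. Under the floor on all arrays were 2 of 4 B cell, 3 of 5 myeloid, 1 of 1 erythroid and 2 of 3 fibroblast markers with a probe set. Above it on all arrays were Pax5 (70.9, 80.9 and 97.6), Csf1r (99.8, 158 and 114) and Col1a2 (54.3, 85.4 and 84.1), and Ms4a1 and Lyz2 were above it on 2.

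The subunit genes were among the brightest of the arrays and differed little between them. Of the 81 genes 77 were compared, and 4 tissue-restricted isoforms, Ndufa4l2, Cox6b2, Cox7b2 and Cox8b, were under the floor on every array. A total of 70 genes lay at or above the 90th percentile of the signal on all 3 arrays, and 15, 15 and 14 reached the 99th percentile on the parental, wild-type and Q84E array. For Q84E/wild-type, 1 of 76 subunit genes was at least 1.5-fold higher, Cox6a2, beside 6.05% of all genes compared (Ndufb4, under the floor on both arrays, has no ratio), and 0 were at least 1.5-fold lower, beside 2.04%. For wild-type/parental 1 of 77 was higher, Cox7a1, beside 3.63%, and 0 were lower, beside 3.79%. For Q84E/parental 2 of 77 were higher, Cox6a2 and Cox7a1, beside 7.62%, and 0 were lower, beside 3.06%. Both genes encode muscle isoforms of complex IV subunits.

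A lower threshold, a log2 ratio of at least 0.32 in either direction, gave few more. At this threshold the subunit genes numbered 3 of 76 (3.95%) for Q84E/wild-type, namely Cox6a2, Cox7a1 and Cox4i2, against a background of 24.1% of all genes compared. For wild-type/parental they numbered 2 of 77 (2.60%), Cox7a1 and Ndufb4, against 21.5%. For Q84E/parental they numbered 3 of 77 (3.90%), Cox6a2, Cox7a1 and Sdhd, against 29.3%. Cox4i2 and Ndufb4 were counted by a bound, since 1 of the 2 signals lay under the floor. Much of this background comes from dim genes, whose ratios scatter more (an SD of 0.33 between probe sets of a gene from the 50th to the 75th percentile, against 0.10 from the 90th up), so the same count was made among the 2629 genes at or above the 90th percentile on all arrays. There the backgrounds were 4.75%, 3.23% and 8.94%, and the subunit genes past it were 0, 0 and 1 of 70. The 1 was Sdhd, an anchor subunit of complex II, lower on the Q84E than on the parental array. The 90th percentile is a lower bound only and does not match the sets in brightness above it. On the parental array it was 1774, and the dimmest of the 70, Ndufs4, gave 2964. Whether brightness has a part in the lower counts was not tested.

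**Figure D1:**
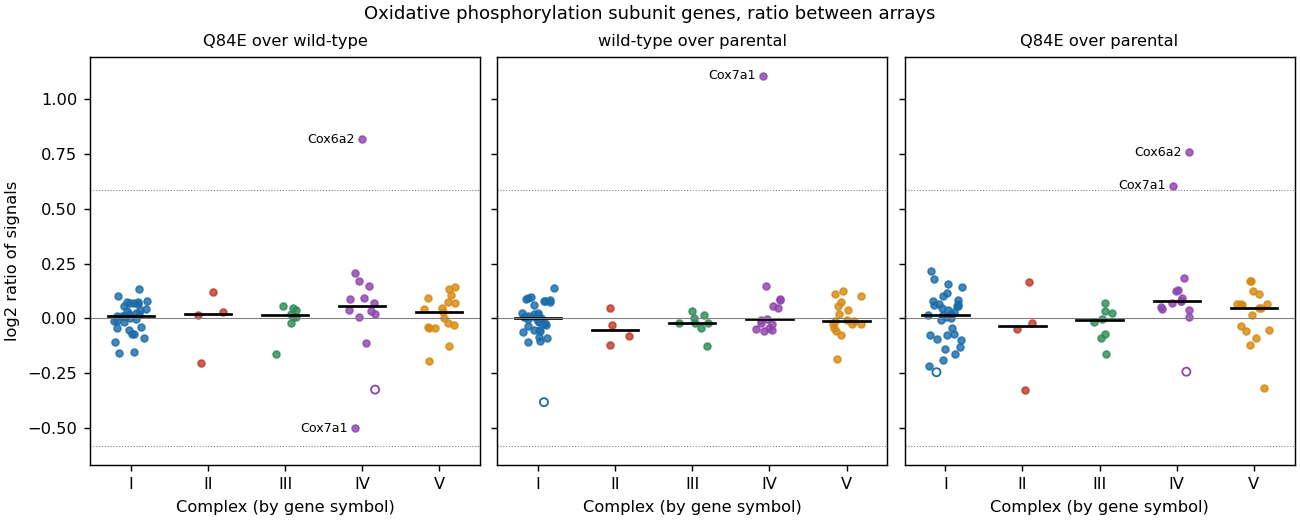
The 3 panels plot the log2 ratio of signals of each subunit gene (vertical axis) by complex (horizontal axis) for Q84E/wild-type, wild-type/parental and Q84E/parental; bars are medians, open circles are bounds set by the floor and dotted lines mark 1.5-fold. Most genes lie within 0.25 of 0, and Cox6a2 and Cox7a1 of complex IV are the points past the dotted lines.

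The median log2 ratio of the subunit genes was 0.018 for Q84E/wild-type (interquartile range -0.035 to 0.069, 50 genes above 0 and 26 below), -0.0078 for wild-type/parental (34 above, 43 below) and 0.037 for Q84E/parental (48 above, 29 below). Over all genes compared the medians were 0.036, 0.011 and 0.057, with 56.6%, 52.6% and 58.4% of genes above 0. The sign of these small shifts hangs on how the arrays are scaled. With the arrays set to a common median, which moves the median of all genes for Q84E/wild-type to -0.10, that of the subunit genes became -0.12, and with quantile normalization it became 0.042. Of 76 subunit genes, 5 were above 0 for Q84E/wild-type under all 3 scalings, namely Cox6a2, Cox7a2l, Cox6a1 and Cox6c of complex IV and Atp5l of complex V, 23 were below 0 under all 3, and 48 turned sign. Q84E log2 ratios printed below for the probe set that represents a member keep their direction under all 3 scalings unless the text says otherwise. Signals, and ratios of other probe sets, are given as deposited only. Where signals stand without a ratio, the direction of Q84E can turn with a common median. It did so for Atp5b, Atp5d, Atp5g3, Sdha and Ndufa4 over wild-type, and for Cox6a1, Cox6c and Atp5l over parental.

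The subunit genes were also set beside other bright genes. Among genes at or above the 90th percentile the median for Q84E/wild-type was -0.028, and 42.1% were above 0, while the 70 bright subunit genes had a median of 0.019 and 68.6% above 0. The median of the 76 subunit genes with a ratio minus that of all bright genes was 0.046 as deposited, 0.047 after quantile normalization and 0.046 with a common median. A common median shifts all genes of an array alike and could not change this difference, so only quantile normalization could move it. For Q84E/parental the same difference was 0.058, 0.034 and 0.058, and for wild-type/parental it was -0.012, -0.019 and -0.012. As deposited, the signal was highest on the Q84E array in 40 of the 70 bright subunit genes, on the parental array in 23 and on the wild-type array in 7. Over all bright genes the Q84E array was highest in 32.1%, the parental in 36.4% and the wild-type in 31.5%. After quantile normalization the Q84E array was highest in 44 of the 70, against 37.3% of all bright genes. With a common median it was highest in 1 of the 70 and lowest in 60 (85.7%), against 8.79% and 78.9% of all bright genes.

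The spread of a gene over the arrays was narrow as deposited, and it was not computed under the other scalings. With a common median the Q84E array was lowest in 60 of the 70 bright subunit genes. Their median for Q84E/wild-type was then -0.12. The error of 1 probe set, given below, was also smaller in bright subunit genes than in all bright genes. The highest signal over the lowest had a median of 1.06-fold among the 70 bright subunit genes and reached from 1.003-fold for Ndufs4 to 1.254-fold for Sdhd. A total of 50 of the 70 (71.4%) stayed within 1.1-fold, and 69 (98.6%) within 0.32 on the log2 scale. Of all 2629 bright genes 42.3% stayed within 1.1-fold and 87.6% within 0.32, with a median of 1.12-fold. By complex the median was 1.07-fold for 32 genes of complex I, 1.09-fold for 4 of complex II, 1.04-fold for 8 of complex III, 1.06-fold for 9 of complex IV and 1.07-fold for 17 of complex V.

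**Figure D2:**
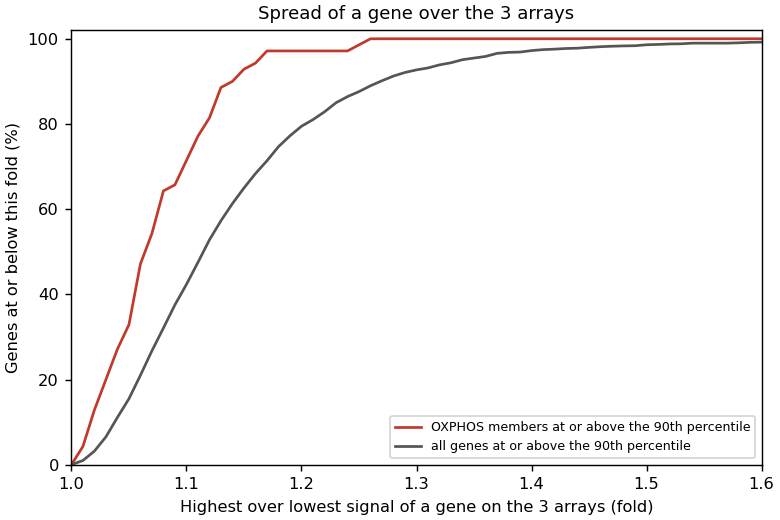
The share of genes in percent (vertical axis) whose highest signal over lowest signal on the 3 arrays is at or below the fold on the horizontal axis, for the 70 subunit genes and all 2629 genes at or above the 90th percentile. The curve of the subunit genes lies to the left, with 71.4% within 1.1-fold against 42.3%, for signals as deposited.

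The error of a ratio from 1 probe set could be estimated from genes with several. Its SD on the log2 scale was 0.10, 0.097 and 0.11 over 786 bright genes and 0.088, 0.069 and 0.058 over 35 bright subunit genes, for Q84E/wild-type, wild-type/parental and Q84E/parental. It covers differences between probe sets on the same arrays and leaves out differences between cultures. The interquartile range of the subunit ratios for Q84E/wild-type lay within this error. Of 47 subunit genes with several probe sets above the floor, 23, 18 and 24 had the same sign in all their probe sets. In 3, 5 and 4 of them the probe sets lay over 1.5-fold apart, namely Ndufb2, Uqcr10 and Uqcrq for Q84E/wild-type, Atp5j2, Cox5b, Ndufs8, Uqcr10 and Uqcrq for wild-type/parental, and Atp5j2, Cox5b, Ndufb2 and Ndufs8 for Q84E/parental.

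Complex I, the NADH dehydrogenase, had 34 compared genes with a median of 0.010 for Q84E/wild-type, 0.0028 for wild-type/parental and 0.016 for Q84E/parental, and none reached 0.32 in size between signals above the floor on both arrays. Ndufv1, which binds NADH and the flavin, gave 6201 on the parental, 6062 on the wild-type and 6373 on the Q84E array. Its iron-sulfur partner Ndufv2 gave 11075, 10679 and 10343. Ndufs1, the large iron-sulfur subunit of the same NADH-binding module, gave 6235, 6013 and 5652. Ndufv2 and Ndufs1 were highest on the parental and lowest on the Q84E array, and Ndufv1 was lowest on the wild-type array as deposited, with a Q84E ratio that turns sign with a common median.

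The subunits that hand electrons to ubiquinone showed the same small steps. Ndufs7, which carries the last iron-sulfur cluster before ubiquinone, gave 7095, 6681 and 6206, a log2 ratio of -0.11 for Q84E/wild-type and -0.19 for Q84E/parental. Its other probe set gave -0.12 and -0.24. Ndufs3, beside the ubiquinone site, gave 8136, 7635 and 7254. Ndufs8, a further iron-sulfur subunit, gave 9811, 9775 and 10274 and did not share that order as deposited. Its Q84E ratios turned below 0 with a common median, to -0.065 over wild-type and -0.076 over parental. Its other probe sets were all below 0 for Q84E/wild-type, from -0.013 to -0.17. In groupings made after the values were seen, the 7 genes of the NADH-binding module had a median of -0.011 for Q84E/wild-type, the 7 of the quinone module -0.073, and the other 18 subunits 0.021.

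Among the accessory subunits of complex I the extremes were as small. Ndufb11, of the membrane arm, gave 10396, 10980 and 12060, the highest ratio of complex I for Q84E/wild-type (0.14, turning to just under 0 with a common median) and for Q84E/parental (0.21). Its 2 other probe sets gave 0.23 and 0.24 for Q84E/parental. Ndufb10, of the same arm, gave 4521, 4327 and 3889, the lowest for Q84E/parental (-0.22). Ndufa5, of the peripheral arm, gave 6120, 6474 and 5797, the lowest for Q84E/wild-type (-0.16), with -0.18 from its other probe set. For wild-type/parental the extremes were Ndufa6 (6946, 7639 and 7731, 0.14) and Ndufa8 (7714, 7159 and 7329, -0.11). Ndufs4 was nearly level at 2964, 2974 and 2974.

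Ndufb1 and Ndufb4 were the common subunits of complex I that lay under the 90th percentile on the probe sets used. Ndufb1 gave 503, 495 and 478. The 1 probe set that names Ndufb4 alone gave 65.9, 2.88 and 44.2 and was above the floor only on the parental array, so only a bound on its ratios over parental can be had. A low signal of this probe set need not be that of the gene. Probe sets with several symbols were left out, and among the 9 with a symbol that fits the rule some were bright, such as 1 at 7480, 8053 and 8154. Ndufa4, the electron transport subunit now placed in complex IV, gave 11418, 11518 and 12080. Its isoform Ndufa4l2, known as a hypoxia-induced gene, was under the floor throughout.

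Complex II, succinate dehydrogenase, is wholly encoded in the nucleus and also works in the TCA cycle. Its flavoprotein Sdha gave 7505 on the parental, 7105 on the wild-type and 7253 on the Q84E array, and its iron-sulfur subunit Sdhb gave 13082, 12784 and 12900. On their brightest probe sets the anchor subunits went opposite ways over parental. Sdhc gave 4557, 4710 and 5114, a log2 ratio of 0.17 for Q84E/parental and of 0.12 for Q84E/wild-type, which turned to just under 0 with a common median; its other probe set gave -0.42 and 0.083. Sdhd gave 8629, 7931 and 6880, log2 ratios of -0.12 for wild-type/parental, -0.20 for Q84E/wild-type and -0.33 for Q84E/parental. The second Sdhd probe set gave 820, 990 and 703, lower on the Q84E array than on both others (-0.49 over wild-type, -0.22 over parental) but higher on the wild-type than on the parental array (0.27). The lower Sdhd signal on the Q84E array was thus seen by both probe sets, and the intermediate place of the wild-type array by 1.

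Complex III, the cytochrome bc1 complex, had the narrowest spread. The core proteins Uqcrc1 and Uqcrc2 gave 12255, 11217 and 11525, and 12167, 11983 and 12152. The Rieske iron-sulfur protein Uqcrfs1 gave 10343, 10013 and 9853. Uqcrc1 had the lowest ratio of the complex for wild-type/parental (-0.13), and Uqcr10, at 6724, 6868 and 6887, the highest (0.031). Uqcrb, a ubiquinone-binding subunit, gave 16098, 16088 and 14384 and was lower on the Q84E array than on either other array by the same log2 ratio of -0.16, with -0.35 and -0.27 from its other probe set. Uqcrq, at 9519, 9608 and 9996, had the highest ratios of the complex with Q84E (0.057 over wild-type and 0.071 over parental), and both signs turn with a common median. Cyc1, the cytochrome c1 subunit that the symbol rule leaves out, gave 17153, 16147 and 14898. Cyc1 and Ndufab1, the acyl carrier subunit of complex I (9828, 9839 and 9418), were added after their values were seen.

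Complex IV, cytochrome c oxidase, held the genes that stood apart. Its 14 compared genes had a median of 0.054 for Q84E/wild-type (11 above 0), -0.0046 for wild-type/parental and 0.079 for Q84E/parental (13 above 0). Of all genes compared 56.6% were above 0 for Q84E/wild-type and 58.4% for Q84E/parental. A common median turned the complex IV medians of these 2 ratios to -0.082 and -0.063. Cox4i1, the common form of the largest nuclear subunit, gave 19227 on the parental, 19877 on the wild-type and 20336 on the Q84E array. Cox5a and Cox5b, subunits on the matrix side, gave 17879, 19018 and 19515, and 20932, 20613 and 21662. All 3 were highest on the Q84E array, by a margin over the next highest array under the error of 1 probe set. Q84E/parental ratios of Cox5a (0.13) and Cox4i1 (0.081) were above the error of 0.058 in bright subunit genes. That of Cox5a was also above the 0.11 of all bright genes. The signs of the Q84E ratios of these 3 genes turn with a common median. Other Cox5b probe sets above the floor, at 21605, 19957 and 21479 and at 172, 111 and 109, were highest on the parental array. Those with Q84E/parental ratios of 0.041 and 0.082 were highest on the Q84E array. A second Cox5a probe set gave 17267, 17268 and 20237, a log2 ratio of 0.23 over both other arrays, and the third gave 0.095 for Q84E/wild-type and 0.15 for Q84E/parental.

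Cox7a2l, known as a factor that joins complexes III and IV into supercomplexes, gave 4810, 4728 and 5458, the largest Q84E/wild-type ratio among bright subunit genes (0.21). Its 2 other probe sets gave 0.056 and 0.27. Cox6a1 gave 24168, 23465 and 26395 (0.17, with 0.12 from its other probe set). Cox6c gave 21730, 20936 and 23162 (0.15), but its other probe set gave -0.077. Cox7c, a small subunit that lay under the 90th percentile on the probe set used, gave 357, 345 and 368.

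Of the tissue-restricted isoforms of complex IV, Cox6a2 and Cox7a1 stood apart from their common partners. Cox6a2, the heart and skeletal muscle form of subunit VIa, gave 967 on the parental, 928 on the wild-type and 1635 on the Q84E array. It was alike on the first 2 arrays and 1.76-fold higher on the Q84E than on the wild-type array, a log2 ratio of 0.82 that stayed between 0.68 and 0.82 under the 3 scalings. Its second probe set gave 232, 244 and 484, a log2 ratio of 0.99 for Q84E/wild-type. Its common partner Cox6a1, above, differed by 0.17 between the same arrays.

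Cox7a1, the muscle form of subunit VIIa, has 1 probe set, which gave 84.8, 183 and 129. It was lowest on the parental and highest on the wild-type array, 2.16-fold above parental on the wild-type array and 1.52-fold above it on the Q84E array. For genes of this brightness the error of 1 probe set is 0.34 on the log2 scale, against log2 ratios of 1.11, 0.61 and -0.50 for wild-type/parental, Q84E/parental and Q84E/wild-type, and there is no second probe set to set beside it. The ratio over parental on the Q84E array was 0.45 after quantile normalization and 0.46 with a common median, both under 1.5-fold. The Q84E/wild-type ratio was -0.65 and -0.64 under these scalings, past 1.5-fold lower, so that the count of subunit genes at least 1.5-fold lower became 1. Its common partner Cox7a2 gave 22688, 23547 and 23829.

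Of the other isoforms, Cox4i2, a lung and hypoxia-responsive form, gave 65.8, 69.6 and 48.5 and lay under the floor on the Q84E array. Cox8c, a testis form, gave 246, 273 and 252, and its other probe set, at 97.7, 84.6 and 110, put the wild-type array lowest and not highest. The testis forms Cox6b2 and Cox7b2 and the muscle form Cox8b were under the floor on all arrays. The common forms Cox6b1 (17582, 17487 and 18555) and Cox8a (11571, 11559 and 11608) stayed within 1.1-fold, and Cox8a had the lowest ratio of the measured genes of complex IV for Q84E/parental. The signals of Cox6a2 and Cox7a1 did not follow the T cell markers in the same way: the marker sum was lowest on the wild-type array, where Cox7a1 was highest and Cox6a2 was near its parental signal. Whether the lower marker sum has a part in these ratios was not tested.

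**Figure D3:**
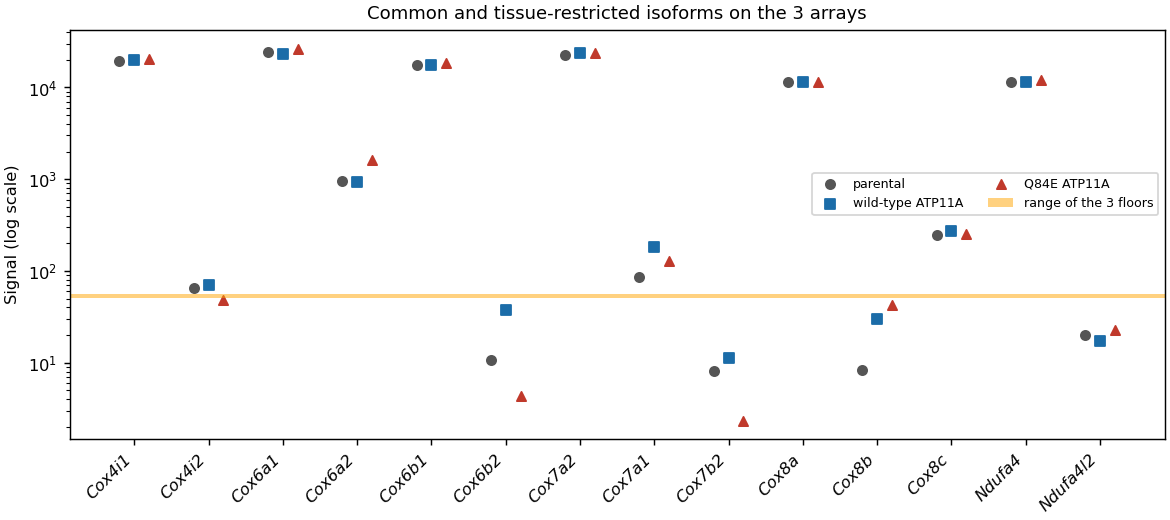
Signals on a log scale (vertical axis) of the common and tissue-restricted isoforms (horizontal axis) on the parental, wild-type and Q84E arrays, with the range of the 3 floors as a band; levels of different genes are not comparable between probe sets. Cox6a2 is higher on the Q84E array, Cox7a1 is lowest on the parental array, and Cox6b2, Cox7b2, Cox8b and Ndufa4l2 lie under the band on all arrays.

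Common subunit genes are known to be driven by broadly expressed factors such as NRF1, the ETS factor GABP and YY1, so RefSeq promoter windows (assembly GRCm38.p6, 250 bases before to 50 after the start) were searched on both strands for GCGCANGCG (NRF1), CCGGAAG (ETS) and AAGATGGCG (YY1). A window was found for 66 of the 81 genes. NRF1 letters were in 18 of 66 (27.3%), against 21.9% of bright genes, 15.4% of genes compared and 7.03% of all genes with a window. ETS letters were in 17 (25.8%), against 27.9%, 20.3% and 9.93%, and YY1 letters in 6 (9.09%), against 5.06%, 3.68% and 1.64%. Any of the 3 was in 34 of 66 (51.5%), against 46.6% of bright genes, 34.2% of genes compared and 16.5% of all genes with a window. None was in the 4 tissue-restricted isoforms with a window, Cox6b2, Cox7a1, Cox7b2 and Cox8b. With 4 genes this cannot be told from the 16.5% of all genes. CG pairs had a median of 8.5 per window in these 4, against 19.5 in the other 62 genes. It was 24 in bright genes and 8 in all genes with a window. A match describes letters only, and the absence of one says nothing of a factor.

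The 250 bases before the start are printed for 4 genes, to set a common complex IV gene with matches and the common and muscle forms of subunit VIIa beside Sdhd, the bright subunit gene with the widest spread. They are 5′ to 3′ on the gene's strand, with matches in capitals: Cox6a1 at chr5:115348959-115349208 (minus strand), Cox7a2 at chr9:79759854-79760103 (minus), Cox7a1 at chr7:30183921-30184170 (plus) and Sdhd at chr9:50603850-50604099 (minus).
Cox6a1: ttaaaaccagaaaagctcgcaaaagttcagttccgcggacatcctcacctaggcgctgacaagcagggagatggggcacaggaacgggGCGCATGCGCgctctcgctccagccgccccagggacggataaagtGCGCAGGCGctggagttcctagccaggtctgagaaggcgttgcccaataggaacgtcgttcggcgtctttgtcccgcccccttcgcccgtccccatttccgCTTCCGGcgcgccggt
Cox7a2: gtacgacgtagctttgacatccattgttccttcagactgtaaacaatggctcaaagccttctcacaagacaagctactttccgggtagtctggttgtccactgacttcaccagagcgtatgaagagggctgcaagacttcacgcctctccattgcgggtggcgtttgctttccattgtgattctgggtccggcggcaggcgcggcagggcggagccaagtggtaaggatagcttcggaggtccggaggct
Cox7a1: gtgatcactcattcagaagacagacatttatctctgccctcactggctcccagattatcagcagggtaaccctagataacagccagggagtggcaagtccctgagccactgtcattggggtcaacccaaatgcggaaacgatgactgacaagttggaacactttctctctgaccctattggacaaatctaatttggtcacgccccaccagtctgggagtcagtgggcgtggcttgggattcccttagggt
Sdhd: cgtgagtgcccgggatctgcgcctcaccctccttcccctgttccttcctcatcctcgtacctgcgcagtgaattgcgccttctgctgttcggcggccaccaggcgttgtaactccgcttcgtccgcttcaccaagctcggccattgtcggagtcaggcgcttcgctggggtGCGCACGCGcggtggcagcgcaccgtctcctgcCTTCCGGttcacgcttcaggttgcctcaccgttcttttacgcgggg
In Cox6a1 the NRF1 letters began at -162, -161 and -117 from the start, the first and second overlapping on opposite strands, and the ETS letters began 16 bases before it. In Sdhd the NRF1 letters began 79 and the ETS letters 46 bases before the start. Cox7a2, a common and steady gene, held none of the 3 motifs in this window, as Cox7a1 did not, but Cox7a2 had 20 CG pairs and Cox7a1 had 7 in the bases before and after the start.

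Complex V, the ATP synthase, had 17 compared genes with a median of 0.028 for Q84E/wild-type, -0.011 for wild-type/parental and 0.046 for Q84E/parental. The catalytic head was even: Atp5a1 gave 20421 on the parental, 20260 on the wild-type and 19648 on the Q84E array, and Atp5b gave 23149, 22719 and 24193. The stalk subunits Atp5c1 and Atp5d gave 20895, 20707 and 20385, and 12307, 12242 and 12869. Atp5e, also of the stalk, gave 7246, 7890 and 8156, the highest ratio of the complex over parental on both other arrays (0.12 and 0.17).

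The 3 genes for the membrane ring, Atp5g1, Atp5g2 and Atp5g3, encode the same mature protein and differ in their import sequences. Atp5g1 gave 11141, 10947 and 10701. Atp5g2 gave 13270, 13959 and 12192, the lowest ratio of the complex for Q84E/wild-type (-0.20), and its dim second probe set, at 130, 115 and 127, gave 0.14. Atp5g3 gave 26633, 25561 and 27490. The 3 did not share an order of the arrays.

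Among the small membrane subunits, Atp5md, which is known to hold ATP synthase dimers together, had the widest spread of the complex. It gave 7057, 6195 and 5666, log2 ratios of -0.19 for wild-type/parental, -0.13 for Q84E/wild-type and -0.32 for Q84E/parental, a factor of 1.246 just short of the lower threshold, and it has 1 probe set. Atp5l gave 9605, 9103 and 10058, the highest ratio of the complex for Q84E/wild-type (0.14). The remaining 7 genes, Atp5h, Atp5j, Atp5j2, Atp5k, Atp5mpl, Atp5o and Atp5pb, were within 0.32 on the log2 scale in all 3 comparisons.

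The other genes needed by the complexes were read from lists. The 15 complex I assembly factors, which build the complex and do not stay in it, had a median of -0.18 for Q84E/wild-type with 13 below 0, beside 4864 of 11210 genes compared, of -0.17 for Q84E/parental with 14 below 0, and of 0.0029 for wild-type/parental. The first was -0.21 after quantile normalization and -0.32 with a common median, and below the median of all genes by 0.22, 0.21 and 0.22. The last 0.22 had to lie close to the first, since a common median shifts all genes of an array alike. Tmem126b gave 172, 192 and 109 (-0.82), Ndufaf6 gave 2557, 2613 and 1872 (-0.48), Timmdc1 gave 592, 588 and 454 (-0.37) and Ndufaf4 gave 5257, 4859 and 3870 (-0.33). These 4 were lower on the Q84E array than on both others, while the subunits of the same complex had a median of 0.010. Tmem126b and Timmdc1 are membrane proteins of the assembly intermediate. Tmem126b was the only 1 of the 15 at least 1.5-fold apart for Q84E/wild-type, beside 6.05% higher and 2.04% lower of all genes compared. Its signal is dim, and for genes of its brightness the error of 1 probe set is 0.33.

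The assembly factors of the other complexes had medians for Q84E/wild-type of -0.068 (complex II, 4 genes), -0.033 (III, 5 genes), -0.080 (IV, 19 genes) and -0.058 (V, 6 genes). Coa7, a complex IV factor of the intermembrane space, gave 1566, 1668 and 986 (-0.76), and Fmc1, a complex V factor, gave 2757, 1988 and 3129 (0.65). The 5 factors of complex III were all lower on the wild-type than on the parental array, with a median of -0.14, beside 5318 of 11220 genes compared below 0. Uqcc1 gave 838, 762 and 580. Sdhaf1 and Sdhaf3, both of complex II, went opposite ways, at 753, 791 and 985 and at 606, 550 and 424. The highest Q84E/wild-type ratio among the complex IV factors was that of Cox16, at 1819, 1825 and 2326 (0.35), and the lowest wild-type/parental ratio that of Surf1, at 2457, 2151 and 1834 (-0.19); both were named after their values were seen. Also among the 2 genes furthest from 0 in a list and comparison were Sdhaf4, Ttc19, Uqcc3, Cox11, Cox15, Cox20, Atpaf1, Atpif1 and Tmem70, each within 1.5-fold.

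The mobile carriers and neighbours of the chain are set beside the bright genes, of which 1522 of 2629 were below 0 for Q84E/wild-type with a median of -0.028. For 12 genes of cytochrome c, adenine nucleotide carriers and other electron donors the median for Q84E/wild-type was -0.072 with 9 below 0. Slc25a4, which exchanges ADP for ATP, gave 17376, 15803 and 13721, a log2 ratio of -0.34 for Q84E/parental, and Nnt, the proton-coupled transhydrogenase, gave 1365, 1393 and 1104. The 18 TCA cycle genes had a median of -0.098 with 13 below 0, led by Pdhx (1052, 984 and 775) and Ogdh (1570, 1673 and 1365). The 13 mitochondrial mass markers had -0.13 with 9 below 0, among them Timm44 (4329, 4353 and 3764) and Phb2 (12089, 11121 and 9858). The highest Q84E/wild-type ratios of the 3 lists, named after their values were seen, were those of Etfdh (0.094), Pdha1 (0.079) and Vdac1 (0.087), all above 0 as deposited. Also among the 2 genes furthest from 0 in a list and comparison were Aifm1, Dhodh, Dlst, Fh1, Pdk1, Lonp1, Tomm20 and Tomm40, each within 1.5-fold. For Q84E/wild-type 1 gene of the TCA list, Pdhx, was lower by more than 0.32 (-0.34), and 0 of the mass list passed 0.32 in either direction.

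Coenzyme Q synthesis had a median of -0.16 for Q84E/wild-type over 12 genes with 7 below 0, beside 4864 of 11210 genes compared. Coq8a, a kinase-like protein of that pathway, was the furthest apart at 103, 74.3 and 149 (1.003), and Coq4 gave 670, 723 and 547. Coq8a is dim, and the error of 1 probe set is 0.33 for genes of its brightness. Of the 16 biogenesis regulators the median was -0.034, and Esrra, a nuclear receptor for energy metabolism genes, gave 730, 823 and 543 (-0.60). Coq5, Coq10b, Gabpb2 and Polrmt were among the 2 furthest from 0 in their list in a comparison and within 1.5-fold. Ppargc1b gave 1178, 878 and 962, and Ppargc1a was under the floor on all arrays. Nrf1, Gabpa and Yy1, named here for the motifs and after their values were seen, gave 636, 605 and 739, then 2675, 2555 and 2499, and 7126, 7927 and 7704. The 1 mitochondrial DNA-encoded subunit with a named probe set, ND5, gave 12852, 13076 and 12540.

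The medians of all 9 lists described by assembly, carbon metabolism, mass, coenzyme Q and regulation stayed below 0 for Q84E/wild-type under the 3 scalings. Those of the subunits by complex were above 0 as deposited and lay between -0.13 and -0.082 with a common median. Those of the 9 lists then lay between -0.32 and -0.17. All bright genes also had medians below 0, at -0.028 as deposited, -0.0052 after quantile normalization and -0.17 with a common median. For all genes compared the medians were 0.036, -0.0014 and -0.10. Minus the median of bright genes, complex III assembly factors (-0.0050) and biogenesis regulators (-0.0061) lay near 0 as deposited. Minus the median of all genes compared they lay at -0.069 and -0.070, and at -0.035 and -0.017 after quantile normalization. Many genes of these lists, such as Uqcc1 and Esrra, are not bright. The median of genes from the 75th to the 90th percentile was 0.037 as deposited. The lists and the subunits were not matched in brightness.

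**Figure D4:**
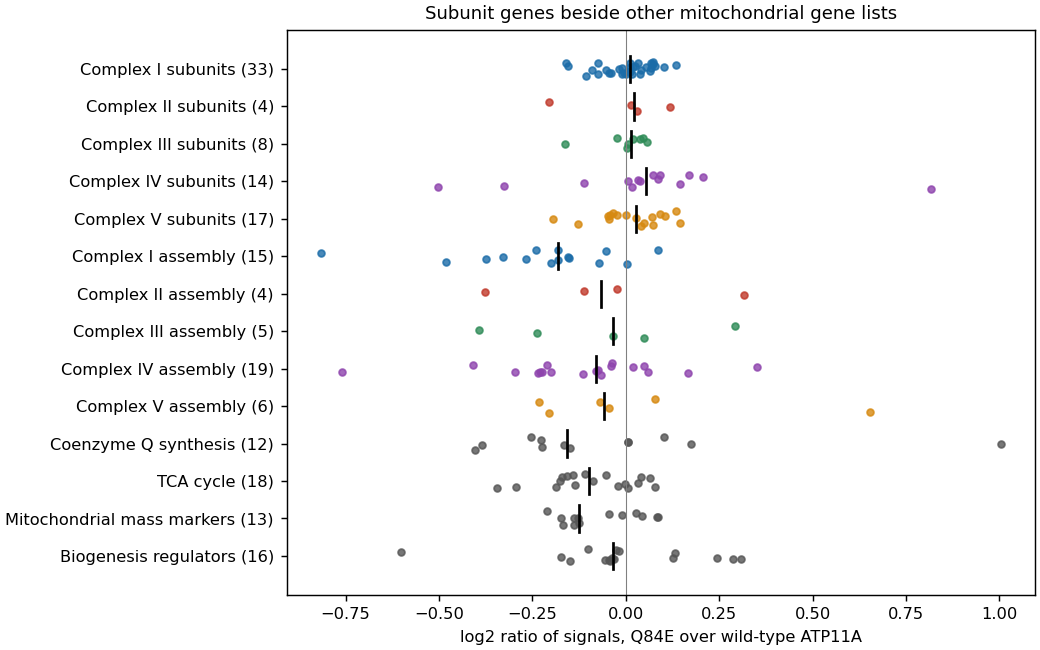
The log2 ratio of signals for Q84E/wild-type (horizontal axis) of each gene in the 5 sets of subunits and 9 other lists (vertical axis, with the number of genes), with medians as black bars. The 5 subunit medians lie between 0.010 and 0.054, and the medians of the 9 lists lie between -0.18 and -0.033. With a common median all are below 0, as is the median of all genes compared (-0.10).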

How the data were processed

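Total RNA of 3 samples, 1 array each, was measured. The file as deposited holds a linear intensity, the signal of each probe set, which the authors made with MAS5, per the submitters' processing notes. A genome build is not given in the sources used here. Leaving out 2% of values at each end, the trimmed mean was 500.0 on each array, so a single factor had scaled each array, and that scaling was kept. MAS5 scaling can spread a shift of many genes over the others.

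Of 45101 probe sets, 34958 had 1 gene symbol in the platform annotation, 932 had several and 9211 were not listed; the last 2 kinds were left out, among them 9 probe sets with several symbols of which 1 fits the rule. All 81 genes matched RefSeq (GRCm38.p6) by Entrez ID. Signals under the 50th percentile were set to it, and the log2 ratio is the difference of 2 such log2 signals; where both were under it no ratio was taken, and where 1 was, the ratio is a bound. Genes were counted by size, at 1.5-fold. The error of 1 probe set is the SD of the difference between 2 probe sets of a gene divided by the square root of 2. The number of arrays limits the precision.

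Named genes were the core subunits, every isoform pair, members past 1.5-fold, the extremes of each complex, and in other lists those past 1.5-fold or furthest apart. Members and lists were chosen with earlier results of these data known. Alternatives were scaling, probe set choice, floor and filter. Scripts used Python 3.11.15, numpy 2.4.6 and pandas 2.3.3 and were tested on simulated data.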

Additional observations from a re-analysis of the deposited data

How the results depend on the processing

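Of 27 alternative values of the 3 subunit medians, 20 moved by less than the standard error of a median that the error of 1 probe set gives. This tolerance treats the subunit genes as independent and leaves out differences between cultures. The alternatives of floor, filter and isoforms leave the ratios of the 70 bright genes unchanged, so they could move these medians little. For single genes past 1.5-fold, 26 alternative values stayed past it and 2 fell short without a change of sign. Many of the 26 could not have changed. Cox7a1 has 1 probe set, above the floor on all arrays, so probe set choice and floor left its ratios as they were. Cox6a2 lies far above the floor, so floor and filter could not move it. The 2 that fell short were Cox7a1 for Q84E/parental with quantile normalization (0.45) and with a common median (0.46). The median for Q84E/wild-type moved to 0.0419 with quantile normalization, to -0.1191 with a common median and, in an alternative chosen after seeing the data, to 0.0435 with the second probe set of each gene. For wild-type/parental it moved to 0.0068 with the mean of all probe sets. For Q84E/parental it moved to -0.1058 with a common median, 0.0207 with the mean of all probe sets and 0.0179 without probe sets named _s_at or _x_at. The moves to -0.1191, 0.0068 and -0.1058 changed the sign of the median.

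The count of subunit genes at least 1.5-fold apart, 1 for Q84E/wild-type, became 2 with quantile normalization, a common median, the mean of all probe sets, no floor or the second probe set, 3 with floor and filter at the 25th percentile or a threshold of 0.32 on the log2 scale, and 0 at 2-fold. For wild-type/parental the 1 became 2 with the mean of all probe sets, without _s_at and _x_at probe sets, with no floor, with the second probe set or at the 0.32 threshold, 4 at the 25th percentile and 0 with a filter at the 75th. For Q84E/parental the 2 became 5 with the mean of all probe sets, 1 with quantile normalization, a common median, a filter at the 75th percentile or the second probe set, and 0 at 2-fold. Of the medians by complex, 33 alternative values moved and the rest did not. Without the tissue-restricted isoforms, an alternative chosen after seeing the data, all 3 counts were 0. Counts this small rest on single genes: Cox7a1 lies near the floor, and genes with several probe sets take their value from the brightest. No paired analysis was possible because each group has 1 array. Leaving out an array leaves no comparison.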
